A study of Homo sapiens with 12 samples.

Results

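UGT2B7, UGT2B10, UGT2B11, UGT2B15, UGT2B17 and UGT2B28 encode 6 UDP-glucuronosyltransferases that lie side by side on chromosome 4. They were picked out of the table by symbol and make up 6 of the 63568 genes in the deposited table of TPM, a read measure scaled for transcript length and library size. The 6 genes all passed the filter on low values, at least 1 TPM in at least 2 libraries, which left 16337 genes to test. UGT2B7 passed through si-NT libraries alone, as it was below 1 TPM in every BRG1 depleted library, so its values after the filter are given as a description. The study asked what the chromatin remodelling ATPase BRG1, the product of SMARCA4, does for transcription in prostate cancer cells. LNCaP cells, an androgen-sensitive line (ATCC) derived from a lymph node metastasis of prostate cancer, were transfected with a non-targeting siRNA pool (si-NT) or with 1 of 2 siRNAs against SMARCA4. They were collected 72 h later, or split and transfected again at 72 h and collected at 144 h. Each siRNA and time point has 2 libraries, which gives 4 si-NT and 8 BRG1 depleted libraries. The table numbers the siRNAs 2 and 3 and the sample labels number them otherwise, so the table's numbers are used here, and the label of 1 library at 72 h carries both of its numbers. All 12 libraries come from 1 line, and nothing states that the 2 libraries of a group were separate cultures, so p-values measure the spread between these libraries, which may be technical.

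UGT2B enzymes sit in the membrane of the endoplasmic reticulum, where they join glucuronic acid from UDP-glucuronic acid to small lipophilic molecules, which can then leave the cell. UGT2B15 and UGT2B17 are the enzymes best known for inactivating dihydrotestosterone and its metabolites in the prostate, and androgen is known to repress both genes in LNCaP cells. UGT2B7 acts on a broad range of steroids and drugs and UGT2B28 also conjugates androgens, whereas UGT2B10 is known for tertiary amines such as nicotine and UGT2B11 has few well established substrates, so the family is not uniformly one of androgen glucuronidation.

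On GRCh37 the 6 genes span 757.9 kb of chromosome 4. UGT2B17 lies at chr4:69402891-69442131 on the minus strand and UGT2B15 at chr4:69512315-69536370, also on the minus strand. UGT2B10 (chr4:69681712-69697741) and UGT2B7 (chr4:69917081-69978705) follow on the plus strand. UGT2B11 lies at chr4:70065669-70080466 on the minus strand and UGT2B28 at chr4:70146193-70160768 on the plus strand. The canonical transcripts have 6 exons, except that of UGT2B17 with 7.

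RefSeq promoter sequences (GRCh38.p14) were matched by symbol for 4 of the 6 genes, UGT2B7, UGT2B10, UGT2B11 and UGT2B15, and not for UGT2B17 and UGT2B28. They are shown because the genes are close copies, so that a reader can see how far the copies also share the sequence before their starts. Each line gives the 250 bases before the RefSeq start, 5′ to 3′ on the gene's strand, and capitals mark a match to a searched motif.
UGT2B7: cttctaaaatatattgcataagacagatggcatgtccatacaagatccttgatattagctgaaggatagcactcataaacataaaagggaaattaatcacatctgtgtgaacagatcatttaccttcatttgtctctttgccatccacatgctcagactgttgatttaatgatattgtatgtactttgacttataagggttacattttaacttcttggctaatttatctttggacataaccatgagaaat
UGT2B10: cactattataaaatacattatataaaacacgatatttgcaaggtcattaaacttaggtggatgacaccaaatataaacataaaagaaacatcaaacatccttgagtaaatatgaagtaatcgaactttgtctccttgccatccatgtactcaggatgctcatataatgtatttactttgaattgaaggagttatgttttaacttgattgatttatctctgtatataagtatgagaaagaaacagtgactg
UGT2B11: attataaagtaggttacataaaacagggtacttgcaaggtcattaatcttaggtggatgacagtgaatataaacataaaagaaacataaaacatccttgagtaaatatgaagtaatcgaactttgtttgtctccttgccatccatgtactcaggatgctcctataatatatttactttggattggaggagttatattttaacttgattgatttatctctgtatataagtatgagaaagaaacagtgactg
UGT2B15: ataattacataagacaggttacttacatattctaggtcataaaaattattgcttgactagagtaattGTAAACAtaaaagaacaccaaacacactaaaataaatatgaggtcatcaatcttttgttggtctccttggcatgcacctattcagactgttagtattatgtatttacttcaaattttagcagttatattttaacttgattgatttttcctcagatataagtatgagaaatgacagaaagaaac

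The stretches lie at chr4:69096224-69096473 (UGT2B7, plus), chr4:68815744-68815993 (UGT2B10, plus), chr4:69214749-69214998 (UGT2B11, minus) and chr4:68670653-68670902 (UGT2B15, minus) on GRCh38.p14, and each has 1 exact match on GRCh37 chromosome 4. For UGT2B7 that match lies within the gene span given above, so the RefSeq start is not the first start of the other annotation. The UGT2B10 and UGT2B11 stretches were 90.2% identical, against 57.9% to 70.0% for the other pairs. All 4 were rich in A and T, which made up 67.2% to 71.6% of the bases. Both strands were searched for the forkhead motifs TGTTTAC and TGTTTGC and the HNF1 motif GTTAAT. Only UGT2B15 held any, TGTTTAC on the reverse strand 183 to 177 bases before the start. Among 35116 RefSeq promoters of the same length, 2.98% held TGTTTAC, 3.23% TGTTTGC and 6.23% GTTAAT. These are matches of letters, and binding was not tested.

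The coding sequences are close enough for reads to be shared. UGT2B11 and UGT2B28 were 97.0% identical over the coding sequence, UGT2B15 and UGT2B17 96.6% and UGT2B10 and UGT2B11 94.8%. Of the 100-base windows of the canonical transcript, those found in no transcript of another gene made up 100% for UGT2B7, 95.5% for UGT2B10, 94.4% for UGT2B28, 90.8% for UGT2B11, 89.4% for UGT2B17 and 87.6% for UGT2B15. UGT2B15 and UGT2B17 shared 252 windows with each other. How the counting treated reads that fit more than 1 gene is not given in the sources used here, so the split between such copies is uncertain.

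SMARCA4 was at 73.4 to 106.6 TPM in the 4 si-NT libraries and at 11.4 to 21.7 TPM in the 8 BRG1 depleted libraries, with a log2 fold change of -2.07 (SE 0.16, adjusted p = 0.000538) at 72 h and -2.66 (SE 0.16, adjusted p = 1.01e-05) at 144 h. Fold changes are on the log2(TPM + 1) scale, which understates those of low genes, and adjusted p-values are from limma with Benjamini-Hochberg adjustment over all 16337 genes. TPM keeps no read depth, so no counting error can be given. The libraries held 14706 to 15355 genes at 1 TPM or more, and ERCC spike-ins took 0.805% to 1.97% of the TPM. The defining markers of luminal prostate cells were present, with 5 of 5 tested and a summed level of 1414 to 2195 TPM. Of the markers of basal, immune, hepatic, intestinal and stromal cells, 10 of 11 were matched by symbol and 2 passed the filter, COL1A1 and ALB. The summed level of the 10 was 11.6 to 15.3 TPM in si-NT cells and 4.49 to 10.7 TPM in BRG1 depleted cells at 72 h, and 9.34 to 16.4 and 4.27 to 7.69 TPM at 144 h. None of the 10 was at 0 in all 12 libraries. ALB, which encodes albumin, fell at 144 h with a log2 fold change of -2.16 (SE 0.40, adjusted p = 0.00305), and the part of these genes in the results below was not tested.

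LNCaP cells given si-NT carried very unequal amounts of the 6 transcripts. TPM is scaled per transcript length, so levels can be set side by side between genes. Over the 4 si-NT libraries UGT2B11 was at 120.0 ± 54.8 TPM, UGT2B17 at 99.1 ± 17.9, UGT2B15 at 49.0 ± 18.0, UGT2B10 at 20.3 ± 10.3, UGT2B28 at 15.2 ± 8.12 and UGT2B7 at 2.33 ± 0.744 TPM (SD, n = 4). UGT2B11 and UGT2B17 could not be ordered, since UGT2B11 was the higher in 3 of 4 si-NT and 6 of 8 BRG1 depleted libraries. UGT2B17 was above UGT2B15 in 4 of 4 si-NT libraries and 7 of 8 BRG1 depleted libraries. The lower neighbours kept their order in every library, with UGT2B15 above UGT2B10, UGT2B10 above UGT2B28 and UGT2B28 above UGT2B7 in 4 of 4 si-NT and 8 of 8 BRG1 depleted libraries. The means of UGT2B10 and UGT2B28 differed by less than 1 SD of either. Between 144 h and 72 h in si-NT cells, 0 of 6 members differed past an adjusted p of 0.05 in limma and 0 at an unadjusted p under 0.05, where 0.0% of all genes were called. The log2 difference was 0.04 (95% interval -0.48 to 0.57) for UGT2B17 and 0.44 (-1.27 to 2.16) for UGT2B10, the narrowest and the widest interval.

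**Figure D1:**
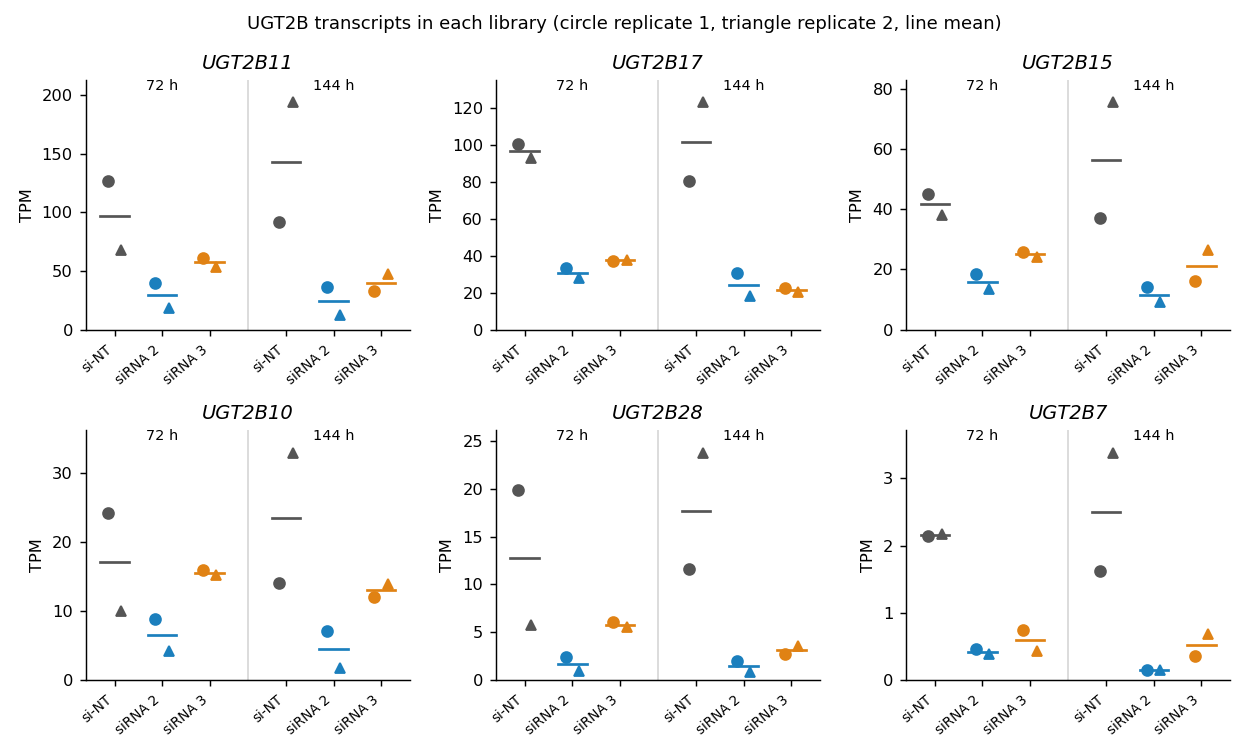
TPM of each UGT2B gene (vertical axes start at 0 and differ between panels) in si-NT, siRNA 2 and siRNA 3 libraries at 72 h and 144 h, with circles for replicate 1, triangles for replicate 2 and lines for group means. UGT2B17 in BRG1 depleted cells stayed at or below 38.0 TPM, under the lowest si-NT library at 80.4 TPM, while the UGT2B10 libraries of siRNA 3 reached 15.9 TPM and overlapped si-NT at 72 h.

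The mean level of all 6 genes was lower in BRG1 depleted than in si-NT cells at both times. At 72 h 2 of 6 members, UGT2B17 and UGT2B7, were lower past an adjusted p of 0.05, where 0.557% of all genes tested were. At 144 h 5 of 6 were lower, where 10.8% of all genes were, and UGT2B10 was the exception. Of the 5 members other than UGT2B7, which the filter kept through si-NT alone, 1 was lower at 72 h and 4 were at 144 h. The median log2 fold change of the 6 members was -1.14 at 72 h and -1.91 at 144 h, against 0.06 and 0.03 over all genes. At 72 h all 4 BRG1 depleted libraries lay below both si-NT libraries for 4 of 6 members (6.93% of all genes), and at 144 h for 6 of 6 (22.5% of all genes). The medians and these counts include UGT2B7. The members were chosen with earlier results of these data known, so setting them beside all genes is only a description. In bulk RNA fewer cells that express a gene and less of its RNA per cell cannot be told apart.

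UGT2B17, which conjugates dihydrotestosterone and testosterone, gave the steadiest fall. In si-NT cells it was at 100.3 and 92.8 TPM at 72 h and at 80.4 and 123 TPM at 144 h. After BRG1 depletion it was at 33.5 and 28.2 TPM with siRNA 2 and 37.1 and 38.0 TPM with siRNA 3 at 72 h, and at 30.5 and 18.1 TPM with siRNA 2 and 22.6 and 20.3 TPM with siRNA 3 at 144 h. No BRG1 depleted library came near si-NT cells at either time, and the siRNAs gave similar levels. The mean fell from 96.6 ± 5.32 TPM (SD, n = 2) to 34.2 ± 4.44 TPM (n = 4) at 72 h, which is 64.6% lower (log2 fold change -1.48, SE 0.21, adjusted p = 0.00621). At 144 h it fell from 101.7 ± 30.1 to 22.9 ± 5.42 TPM, 77.5% lower (log2 fold change -2.10, SE 0.21, adjusted p = 0.000101). Without either si-NT library of 72 h the adjusted p at 72 h was 0.0593 or 0.058, with log2 fold changes of -1.42 and -1.53.

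UGT2B15, the close copy of UGT2B17 that also inactivates dihydrotestosterone, was lower in every BRG1 depleted library than in the si-NT libraries of its time. The si-NT libraries held 45.1 and 38.2 TPM at 72 h and 37.05 and 75.4 TPM at 144 h. With siRNA 2 the levels were 18.5 and 13.55 TPM at 72 h and 14.2 and 9.1 TPM at 144 h, and with siRNA 3 they were 25.85 and 24.3 TPM at 72 h and 16.0 and 26.55 TPM at 144 h. The groups did not overlap, and siRNA 2 gave the lower values at both times. At 72 h the mean was 41.7 ± 4.89 TPM in si-NT and 20.5 ± 5.64 TPM in BRG1 depleted cells, 50.7% lower, which missed the threshold (log2 fold change -1.02, SE 0.38, adjusted p = 0.222). At 144 h it fell from 56.2 ± 27.1 to 16.5 ± 7.33 TPM, 70.7% lower (log2 fold change -1.72, SE 0.38, adjusted p = 0.00756). That call rested on si-NT replicate 2, without which the log2 fold change was -1.22 (adjusted p = 0.126).

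UGT2B28, which also conjugates androgens, showed the largest fold change of the 6 at 144 h. It was at 19.9 and 5.75 TPM in si-NT cells at 72 h, and at 11.6 and 23.8 TPM at 144 h. With siRNA 2 it was at 2.38 and 0.95 TPM at 72 h and 2.04 and 0.81 TPM at 144 h, and with siRNA 3 at 6.04 and 5.56 TPM at 72 h and 2.68 and 3.61 TPM at 144 h. At 72 h 1 siRNA 3 library lay above the lower si-NT library, so the groups overlapped, whereas at 144 h they were apart. The mean was 70.9% lower at 72 h (log2 fold change -1.51, SE 0.58, adjusted p = 0.248), from 12.8 ± 9.98 to 3.73 ± 2.47 TPM. That value hung on the si-NT libraries of 72 h, and was -0.69 without replicate 1 and -2.32 without replicate 2. At 144 h it was 87.1% lower, from 17.7 ± 8.62 to 2.29 ± 1.18 TPM (log2 fold change -2.50, SE 0.58, adjusted p = 0.0103), and without si-NT replicate 2 of that time the log2 fold change was -2.02 (adjusted p = 0.132).

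UGT2B7, the broad steroid and drug conjugating member, was a minor transcript and was below 1 TPM in all BRG1 depleted libraries. It was at 2.15 and 2.18 TPM in si-NT cells at 72 h and at 1.62 and 3.38 TPM at 144 h. With siRNA 2 it was at 0.46 and 0.39 TPM at 72 h and at 0.15 TPM in both libraries at 144 h, and with siRNA 3 at 0.75 and 0.44 TPM at 72 h and 0.36 and 0.68 TPM at 144 h. Every BRG1 depleted library was below every si-NT library. The mean was 2.17 ± 0.0212 TPM in si-NT and 0.51 ± 0.163 TPM in BRG1 depleted cells at 72 h, 76.4% lower (log2 fold change -1.07, SE 0.23, adjusted p = 0.041), and at 144 h 2.5 ± 1.25 and 0.335 ± 0.250 TPM, 86.6% lower (log2 fold change -1.36, SE 0.23, adjusted p = 0.00198). These values are a description, since the filter kept the gene through the group where it was high. With no filter the adjusted p was 0.0633 at 72 h and 0.00484 at 144 h. The call at 72 h was near its limit: it held in 8 of 22 other settings and left-out libraries, with adjusted p from 0.00368 to 0.204. It was lost without either si-NT library of 72 h, without each BRG1 depleted library of 72 h, and without 3 of the 4 BRG1 depleted libraries of 144 h.

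UGT2B11 was the most abundant member on average and also varied widely among libraries. The si-NT libraries held 127 and 67.6 TPM at 72 h and 91.9 and 194 TPM at 144 h. With siRNA 2 the levels were 40.2 and 18.6 TPM at 72 h and 36.1 and 12.6 TPM at 144 h, and with siRNA 3 they were 61.5 and 53.3 TPM at 72 h and 33.0 and 47.2 TPM at 144 h. The groups were apart at both times, by 61.5 against 67.6 TPM at their nearest at 72 h. The mean was 55.4% lower at 72 h, from 97.2 ± 41.8 to 43.4 ± 18.7 TPM, which missed the threshold (log2 fold change -1.20, SE 0.55, adjusted p = 0.345, and -0.75 without si-NT replicate 1 of that time). At 144 h it fell by 77.4%, from 142.8 ± 71.9 to 32.2 ± 14.4 TPM (log2 fold change -2.16, SE 0.55, adjusted p = 0.0154), and without si-NT replicate 2 of that time the log2 fold change was -1.62 (adjusted p = 0.181).

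UGT2B10, known for conjugating tertiary amines, was the member with the smallest difference as a percentage of its si-NT mean. It was at 24.2 and 10.0 TPM in si-NT cells at 72 h and at 14.1 and 33.0 TPM at 144 h. With siRNA 2 it was at 8.84 and 4.23 TPM at 72 h and 7.18 and 1.74 TPM at 144 h, and with siRNA 3 at 15.9 and 15.2 TPM at 72 h and 12.1 and 13.9 TPM at 144 h. The groups overlapped at 72 h, and at 144 h they were apart by 13.9 against 14.1 TPM. The mean was 35.4% lower at 72 h, 17.1 ± 10.0 against 11.05 ± 5.55 TPM, and 62.9% lower at 144 h, 23.5 ± 13.35 against 8.74 ± 5.47 TPM. Neither difference passed the test, with log2 fold changes of -0.61 (SE 0.68, adjusted p = 0.753) and -1.48 (SE 0.68, adjusted p = 0.138). Without si-NT replicate 1 of 72 h the former was -0.02 (adjusted p = 1), and without replicate 2 it was -1.21 (adjusted p = 0.607). Without si-NT replicate 2 of 144 h the latter was -0.89 (adjusted p = 0.588), and without replicate 2 of siRNA 2 it was -0.95 (adjusted p = 0.245).

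**Figure D2:**
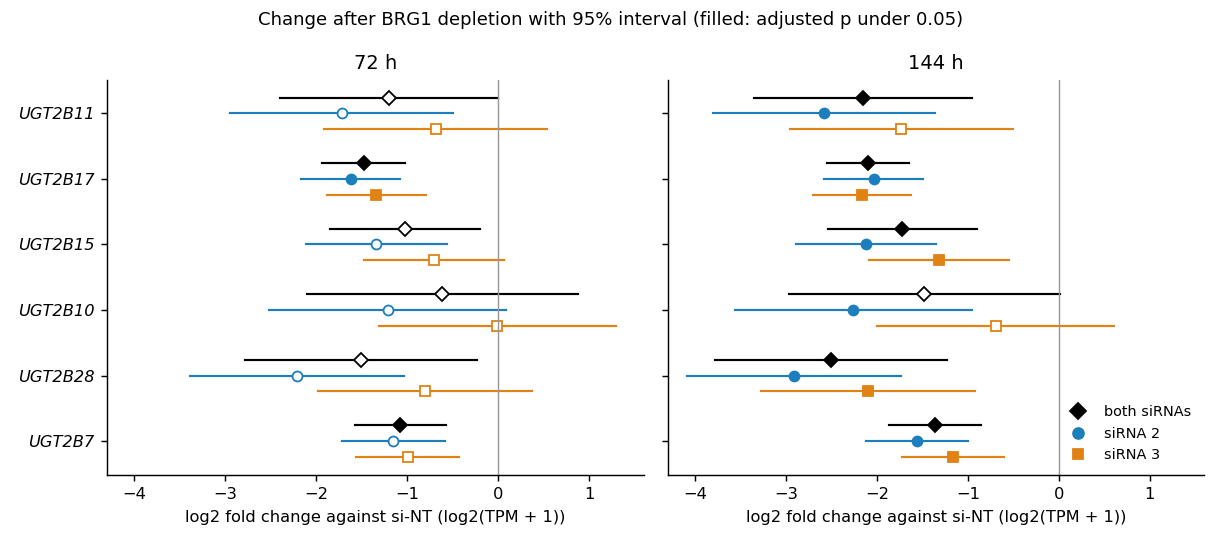
Log2 fold change of each UGT2B gene against si-NT at 72 h (left) and 144 h (right) for both siRNAs together, siRNA 2 and siRNA 3, with 95% intervals, where filled symbols passed an adjusted p of 0.05. UGT2B17 passed with either siRNA at both times, and UGT2B10 with siRNA 3 sat at -0.01 at 72 h and -0.70 at 144 h.

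The mean fall of every member was larger at 144 h than at 72 h, but the difference between the times passed the test for 0 of 6 members in limma, with 0 at an unadjusted p under 0.05 (0.0184% of all genes were called). The nearest was UGT2B17, whose log2 fold change was 0.62 more negative at 144 h (difference -0.62, 95% interval -1.26 to 0.02, adjusted p = 0.431). For UGT2B28 the difference was -0.998 with an interval of -2.80 to 0.81. The intervals of the other 4 members also held 0, from UGT2B7 (-0.29, interval -0.997 to 0.42) to UGT2B11 (-0.95, interval -2.65 to 0.74).

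The siRNAs gave like levels of SMARCA4, with siRNA 3 against siRNA 2 at a log2 difference of -0.14 (95% interval -0.57 to 0.28) at 72 h and -0.17 (-0.60 to 0.26) at 144 h, yet the UGT2B transcripts other than UGT2B17 at 144 h were on average higher with siRNA 3. siRNA 3 gave the higher mean log2 level for 6 of 6 members at 72 h and 5 of 6 at 144 h. No member differed past an adjusted p of 0.05 in limma, where 0.141% of all genes did at 72 h and 0.331% at 144 h. At an unadjusted p under 0.05 there was 1 member at 72 h, UGT2B28 (log2 difference 1.40, interval 0.23 to 2.58, adjusted p = 0.52), and there were 2 at 144 h. These were UGT2B10 (1.56, interval 0.26 to 2.87, adjusted p = 0.306) and UGT2B15 (0.80, interval 0.03 to 1.58, adjusted p = 0.359). UGT2B17 differed least at 144 h (-0.13, interval -0.67 to 0.41).

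Set against si-NT singly, each siRNA lowered UGT2B17 at 72 h and no other member past the threshold, 1 of 6 for siRNA 2 (0.63% of all genes were lower) and 1 of 6 for siRNA 3 (0.226%). At 144 h siRNA 2 lowered 6 of 6 members (7.67% of all genes), UGT2B10 among them with a log2 fold change of -2.26 (SE 0.58, adjusted p = 0.0244). siRNA 3 lowered 4 of 6 (10.4% of all genes), without UGT2B10 (-0.70, SE 0.58, adjusted p = 0.434) and UGT2B11 (-1.73, SE 0.54, adjusted p = 0.0514). For UGT2B17 the log2 fold changes were -1.62 with siRNA 2 (adjusted p = 0.0181) and -1.34 with siRNA 3 (adjusted p = 0.0481) at 72 h. They were -2.03 (adjusted p = 0.000989) and -2.16 (adjusted p = 0.000825) at 144 h. Both counts at 144 h include UGT2B7, which the filter kept through si-NT libraries alone. The siRNAs were each compared with the same si-NT libraries.

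Summed over the 6 genes, UGT2B transcripts made up 216.6 and 318 TPM in si-NT cells at 72 h and 236.7 and 452 TPM at 144 h. In BRG1 depleted cells the sum was 65.96 to 147 TPM at 72 h, mean 113 ± 36.6 TPM (SD, n = 4), and 42.5 to 112 TPM at 144 h, mean 82.9 ± 29.2 TPM (n = 4). The sums of si-NT and BRG1 depleted libraries did not overlap at either time. UGT2B11 and UGT2B17 held most of the sum in every library. UGT2B11 took 31.2% to 42.8% of the sum in si-NT and 28.2% to 42.0% in BRG1 depleted libraries, ranges that overlapped. UGT2B17 took 27.2% to 42.8% and 18.1% to 42.8%. UGT2B7 took 0.675% to 1.01% in si-NT libraries and 0.166% to 0.606% in BRG1 depleted libraries, so its share was lower in all 8. The filter kept UGT2B7 through si-NT libraries alone, so this is only a description. The ratio of UGT2B17 to UGT2B15, the enzymes with shared androgen substrates, was 1.63 to 2.43 in si-NT libraries and 0.764 to 2.15 in BRG1 depleted libraries, with the lowest value in a siRNA 3 library at 144 h, the 1 library where UGT2B15 was the higher.

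**Figure D3:**
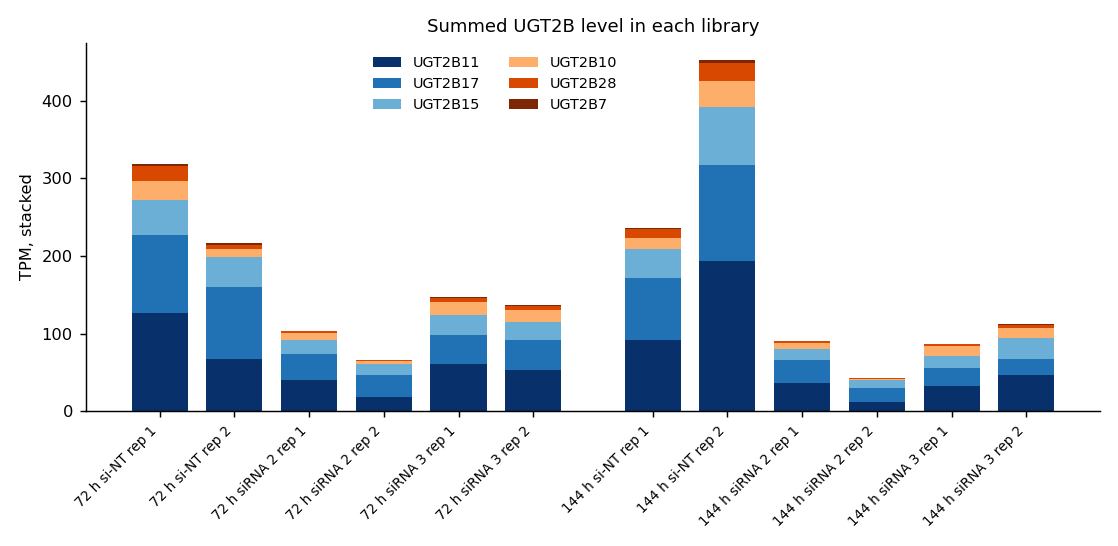
Summed TPM of the 6 UGT2B genes in each library, stacked by gene with the most abundant at the bottom. The si-NT sums run from 216.6 to 452 TPM and the BRG1 depleted sums from 42.5 to 147 TPM, and UGT2B11 and UGT2B17 (dark blues) fill most of each bar.

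Some of the 6 genes also varied together among libraries of the same group, si-NT or BRG1 depleted at 1 time. The BRG1 depleted groups pool both siRNAs, so this variation includes the difference between the siRNAs. After taking out the mean of each of the 4 groups, the log2 values of UGT2B10, UGT2B11 and UGT2B28 had Pearson correlations of 0.922 to 0.964 with each other over the 12 libraries. The SD of these deviations was 0.934 for UGT2B10, 0.752 for UGT2B11 and 0.798 for UGT2B28, against 0.271 for UGT2B17 and 0.261 for UGT2B7. UGT2B7 lay at 0.15 to 3.38 TPM, where the log2(TPM + 1) scale narrows variation, so its SD does not show that it was steady. The value for UGT2B15 was 0.511, and its correlation was 0.915 with UGT2B11 and 0.542 with UGT2B17, which is its nearest copy in sequence. These correlations are a description over 12 libraries that hold 2 siRNAs within the BRG1 depleted groups, and library depth is not known.

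The genes whose log2(TPM + 1) followed that of UGT2B17 most closely over the 12 libraries, outside the UGT families, were LRRC31 (r = 0.979), SLC7A2 (r = 0.971), TMPRSS11E (r = 0.969), LINC01354 (r = 0.963) and OSTC (r = 0.962). SLC7A2 encodes a transporter of cationic amino acids and TMPRSS11E a membrane-bound serine protease. For UGT2B11 they were the gene listed as ENSG00000258085 (r = 0.98), the pyrophosphatase gene PPA1 (r = 0.957), PPID (r = 0.953), NR2F1 (r = 0.953) and the peroxiredoxin gene PRDX1 (r = 0.937). NR2F1, an orphan nuclear receptor also called COUP-TFI, ranged from 2.69 to 35.6 TPM and had a log2 fold change of -2.17 (adjusted p = 0.00158) at 144 h. LRRC31 ranged from 0.13 to 4.8 TPM, with log2 fold changes of -1.34 (adjusted p = 0.00506) at 72 h and -1.99 (adjusted p = 5.04e-05) at 144 h. All 12 points of each correlation share the same libraries and groups. The genes were picked by correlations that include the group difference, so their fold changes are not independent of the choice and are only a description.

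The neighbours of the 6 genes were mostly silent. Within 500 kb of the members and between them the table holds 60 other genes, of which 6 passed the filter. At 72 h 1 of the 6 was lower (0.557% of all genes were) and at 144 h 3 were (10.8%). These 3 (TMPRSS11E, UGT2B4 and UGT2B27P) passed the filter through si-NT libraries alone, so that their counts are only a description. TMPRSS11E, next to UGT2B17, was at 2.39 ± 0.559 TPM (SD, n = 2) in si-NT and 0.275 ± 0.179 TPM (n = 4) in BRG1 depleted cells at 144 h (log2 fold change -1.41, SE 0.20, adjusted p = 0.00076). UGT2B4, a bile acid conjugating enzyme, was lower at 72 h (log2 fold change -1.01, adjusted p = 0.0283) and at 144 h, from 1.58 ± 0.156 to 0.213 ± 0.137 TPM (log2 fold change -1.09, SE 0.19, adjusted p = 0.00236). The pseudogene UGT2B27P went from 1.67 ± 0.891 to 0.415 ± 0.368 TPM at 144 h (log2 fold change -0.91, adjusted p = 0.0337). The ubiquitously expressed m6A reader gene YTHDC1, at 52.4 ± 1.67 TPM in si-NT cells at 144 h, had log2 fold changes of -0.22 (adjusted p = 0.515) and -0.26 (adjusted p = 0.183).

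**Figure D4:**
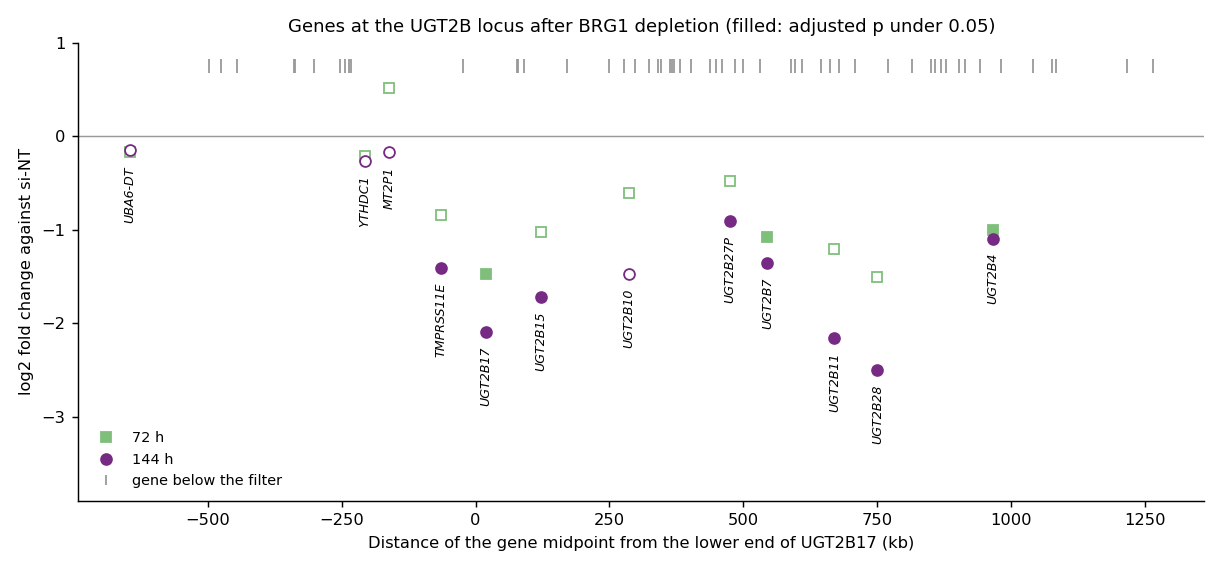
Log2 fold change against si-NT at 72 h (squares) and 144 h (circles) of the 12 genes tested at the UGT2B locus, by distance of the gene's midpoint from the lower end of UGT2B17 in kb, with grey ticks for genes below the filter. Values at 144 h were -0.91 or lower from TMPRSS11E to UGT2B4 and -0.26 or nearer to 0 for UBA6-DT, YTHDC1 and MT2P1. TMPRSS11E, UGT2B7, UGT2B27P and UGT2B4 passed the filter through si-NT libraries alone and MT2P1 through BRG1 depleted libraries alone, so their values are only a description.

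Outside the 6 members few UGT genes were expressed. Of 21 other UGT genes, 19 were matched to the table and 3 passed the filter, UGT2B4, UGT2B27P and UGT8. No matched UGT1A gene exceeded 0.82 TPM in any library. At 144 h 3 of 3 were lower (10.8% of all genes were) and at 72 h 1 of 3 (0.557%), with the limit just given for UGT2B4 and UGT2B27P. UGT8, which makes galactosylceramide rather than glucuronides, fell at 144 h from 19.2 ± 6.53 to 5.16 ± 0.171 TPM (log2 fold change -1.67, SE 0.25, adjusted p = 0.00103).

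Genes for the sugar donor that the enzymes use were not among those that fell. Of 11 genes tested for the making of UDP-glucuronic acid, its transport, the removal of glucuronides and their export, 1 was higher at 72 h and 2 at 144 h, and 0 were lower in limma, where 1.13% of all genes were higher at 72 h and 13.6% at 144 h. At an unadjusted p under 0.05, 3 were higher and 1 lower at each time. The lower gene was ABCG2, which the filter kept through si-NT libraries alone, so that count is only a description. UGDH, which oxidises UDP-glucose to UDP-glucuronic acid, was at 55.4 TPM in si-NT and 84.6 TPM in BRG1 depleted cells at 72 h (log2 fold change 0.61, SE 0.13, adjusted p = 0.0416). That call held in 2 of 10 fits that each left out 1 library but kept the si-NT libraries of 72 h. At 144 h UGDH rose from 52.9 ± 0.212 to 148.8 ± 24.4 TPM (log2 fold change 1.46, SE 0.13, adjusted p = 5.04e-05). With libraries rescaled to the ERCC spike-ins the 144 h value was 1.06 (adjusted p = 0.0514), and relative to the median of all genes under that scaling it was 1.37. SLC35D2, a nucleotide sugar transporter, rose at 144 h from 15.9 ± 0.573 to 27.3 ± 4.58 TPM (log2 fold change 0.73, SE 0.15, adjusted p = 0.00585; 0.35 and adjusted p = 0.471 with ERCC scaling). The median of the list was 0.06 at 72 h and 0.19 at 144 h.

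Enzymes that form androgens or inactivate them by other routes were mixed. Of 12 tested of 22 listed, 2 were higher and 0 lower in limma at 72 h (1.13% and 0.557% of all genes). At an unadjusted p under 0.05 there were 2 and 4 at that time. At 144 h 2 were higher and 4 lower (13.6% and 10.8% of all genes). The list medians were -0.11 and -0.08. SULT2B1, which sulphates 3β-hydroxysteroids, rose from 21.5 ± 1.93 to 63.5 ± 8.26 TPM at 144 h (log2 fold change 1.51, SE 0.12, adjusted p = 2.93e-05). Lower at 144 h were HSD17B6 (log2 fold change -1.03, adjusted p = 0.00565), which can turn androstanediol back to dihydrotestosterone, HSD17B11 (-0.92, adjusted p = 0.000726), and AKR1C2 (-0.88, adjusted p = 0.00516), which reduces dihydrotestosterone to androstanediol. The other 2 called were HSD17B4, a peroxisomal enzyme that rose from 200.5 ± 7.96 to 346.9 ± 24.8 TPM (log2 fold change 0.79, adjusted p = 0.000198; 0.38 and adjusted p = 0.431 with ERCC scaling), and AKR1C1 (-0.86, adjusted p = 0.0119), named after their values were seen. AKR1C1 and AKR1C2 are near-identical copies at under 2 TPM, so their split is uncertain. Both, and RDH16, which was not called, passed the filter through si-NT libraries alone, so the counts of lower genes are only a description.

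Of 6 tested factors known to act on UGT2B genes, 0 passed the threshold in limma at 72 h (1, lower, at an unadjusted p under 0.05), with list medians of 0.15 at 72 h and 0.12 at 144 h. FOXA1 had log2 fold changes of 0.17 (adjusted p = 0.597) at 72 h and -0.01 (adjusted p = 0.966) at 144 h. With ERCC scaling these were -0.03 and -0.41 (adjusted p = 0.437 at 144 h). Relative to the median of all genes under that scaling, the 144 h value was -0.10. At 144 h 1 factor was higher and 1 lower (13.6% and 10.8% of all genes). VDR, the vitamin D receptor, fell from 9.70 ± 0.530 to 4.33 ± 0.636 TPM (log2 fold change -1.01, SE 0.13, adjusted p = 0.000441). NFE2L2 was at 43.8 ± 0.233 and 52.4 ± 2.53 TPM (log2 fold change 0.25, adjusted p = 0.0337), a direction that turned with ERCC scaling (-0.15, adjusted p = 0.784).

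Androgen repression is textbook background for UGT2B15 and UGT2B17, so genes listed as induced or repressed by androgen were set beside them. Whether androgen acts on each listed gene in that direction in these cells was not tested. Of 10 androgen-induced genes tested, 3 were higher and 0 lower in limma at 144 h, where 13.6% of all genes were higher and 10.8% lower, with 1 lower at an unadjusted p under 0.05. At 72 h 0 were called by limma, with 2 higher and 2 lower at an unadjusted p under 0.05. Called at 144 h were the acid phosphatase gene listed as ACPP, now ACP3 (log2 fold change 1.92, adjusted p = 0.000829), PMEPA1 (1.75, adjusted p = 0.00598) and SLC45A3 (1.43, adjusted p = 0.00562). With ERCC scaling PMEPA1 (1.36, adjusted p = 0.0973) and SLC45A3 (1.03, adjusted p = 0.128) no longer passed. The list also held KLK2 at -1.18 (adjusted p = 0.0937) and KLK3 at -0.02 (adjusted p = 0.975), and its median was 0.46. Both hung on single si-NT libraries of 144 h: KLK2 was at -0.55 without replicate 1 and -1.80 without replicate 2, and KLK3 at 0.52 and -0.56. Of 5 other androgen-repressed genes, 1 was higher and 1 lower at 144 h and 0 were called by limma at 72 h (1 higher and 1 lower at an unadjusted p under 0.05). OPRK1, an opioid receptor gene, went from 0.48 ± 0.0707 to 7.1 ± 1.94 TPM (log2 fold change 2.42, adjusted p = 0.000209), and BCHE, which encodes butyrylcholinesterase, went from 3.8 ± 1.12 to 0.353 ± 0.120 TPM (log2 fold change -1.81, adjusted p = 0.000174). The filter kept OPRK1 through BRG1 depleted libraries alone and BCHE through si-NT libraries alone, so both values and the counts are only a description. The median of these 5 was -0.54.

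**Figure D5:**
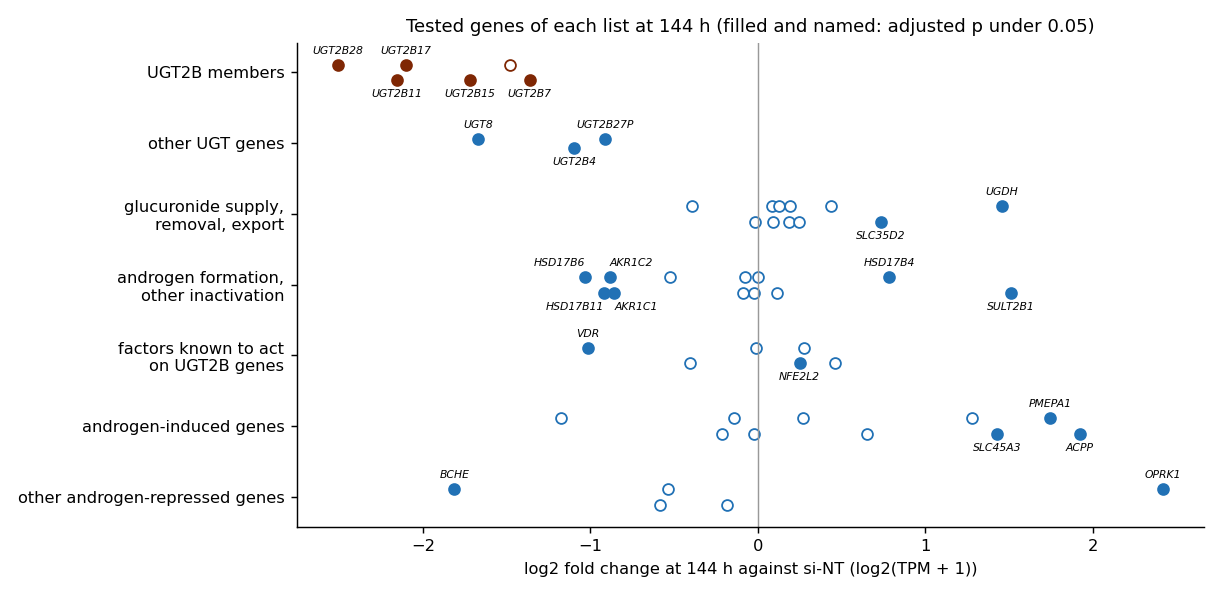
Log2 fold change at 144 h against si-NT of each tested gene in the UGT2B family and 6 related lists, 1 point a gene, filled and named where the adjusted p was under 0.05. The UGT2B members and the other UGT genes lie below 0, between -2.50 and -0.91. Of these, UGT2B7, UGT2B4 and UGT2B27P passed the filter through si-NT libraries alone. UGDH lies at 1.46 and the genes listed as androgen-induced spread from -1.18 to 1.92.

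Of MCM2 to MCM7, subunits of the replicative helicase, 5 of 6 were lower at 144 h (10.8% of all genes were) with log2 fold changes from -0.82 to -1.10, and at 72 h 0 were called by limma and 0 at an unadjusted p under 0.05, and their part in the UGT2B values was not tested. Of the 5 luminal markers 1 was higher at 144 h, where 13.6% of all genes were. It was KRT8 (log2 fold change 0.56, adjusted p = 0.00109), which ERCC scaling took to 0.16 (adjusted p = 0.755).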

How the data were processed

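The authors prepared stranded mRNA libraries with ERCC spike-ins for 12 samples of LNCaP cells, aligned reads to hg19 (GRCh37) with STAR 2.4.0j (per the submitters' processing notes), counted them into genes and deposited TPM for genes and spike-ins together, 1 column a library. The tool that made TPM is not given in the sources used here. The table holds 63568 genes and 92 spike-ins, every column was matched, and 0 pairs of libraries were identical. TPM was analysed as log2(TPM + 1), with a filter of 1 TPM in 2 libraries, by limma 3.58.1 (R 4.3.3) with a mean trend in 4 groups. The siRNAs were compared in a fit of 6 groups. Benjamini-Hochberg adjustment covered all genes, and genes were called at an adjusted p of 0.05. The fit was tested on simulated data. Other steps used Python 3.11.15, pandas 2.3.3 and Biopython 1.88.

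The members and gene lists were chosen with earlier results of these data known. From each list up to 4 called genes with the largest change were named, with the 5 genes most like each of the 2 most abundant members and the called genes within 500 kb. Symbols, coordinates and transcripts come from GENCODE 44 lifted to GRCh37, which is not the authors' release. Alternatives were pseudocount, scaling, filter, replicate block, moderation, grouping, control set and left-out libraries. Those for the lists were added after seeing the data. Some genes of the lists and a motif are not reported here, and counts leave them out.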

Additional observations from a re-analysis of the deposited data

How the results depend on the processing

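Each UGT2B gene kept its direction at both times in every alternative, but UGT2B10 at 72 h was at -0.02 without si-NT replicate 1, so that no difference was left. The count of members called at 72 h, 2 as reported, was 1 with a pseudocount of 0.1, with ERCC scaling, with no filter, with a mean of at least 5 TPM (which leaves out UGT2B7) and with only the 6 libraries of the time point, and 4 with the si-NT libraries of both times combined. The 1 call that remained with ERCC scaling, no filter or the replicate block was UGT2B17. With the replicate block the count at 72 h was 1, and the block changed no other count. The difference between replicates 1 and 2 was correlated across genes between groups, and the 15 correlations ran from -0.229 to 0.300. With 1 such difference a group, they cannot settle whether the replicate numbers pair the libraries. Leaving out 1 library gave 0 to 2 at 72 h, with 0 without either si-NT library of that time, and 2 to 5 at 144 h, with 2 (UGT2B7 and UGT2B17) without si-NT replicate 2. Under ERCC scaling the all-gene median log2 fold change was -0.11 (72 h) and -0.31 (144 h), and UGT2B10 passed at 144 h (log2 fold change -1.87, adjusted p = 0.0409). The cause of these moves was not tested. Among the other named lists, calls were checked in 10 fits, each without 1 library (controls of the same time point were kept). Fits without a library of the other time point leave the fold change as it is, so these checks are milder than those of the members. At 72 h UGDH held in 2 of 10, HSD17B4 in 4 and UGT2B4 in 5. At 144 h MCM4 held in 4, NFE2L2 in 6 and UGT2B27P in 7, and the remaining called genes of these lists held in 10 of 10. Without si-NT replicate 2 the 144 h log2 fold change of UGT2B27P was -0.56. Groups of 2 si-NT libraries limit every comparison, and the deposited TPM give no read depth.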
